A study of Mus musculus with 4 samples.

Results

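The genes described here are 38 genes of the NRF2 and glutathione system in a mouse hepatic stellate cell line, taken by name from the 26793 gene names on the arrays. They were chosen by known role: the transcription factor NRF2 and its inhibitor KEAP1, the enzymes that make, recycle and use glutathione, the thioredoxin system, the enzymes that supply NADPH, superoxide dismutases and catalase, and a group of quinone, heme and iron genes with 1 exporter. Earlier results of these data were known when the list was chosen, so its shares beside those of all genes are descriptive only. All 38 had a probe on the array (60 probes in all), and 37 gave a signal well above background on 1 or more arrays. Glutathione peroxidase 3 (Gpx3) was not well above background on any of the 4 arrays and enters no comparison.

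The cells were IMS/N cells, a line of stellate cells from the liver of a normal 129/Sv mouse that was immortalized with SV40. There were 4 groups with 1 array each: untreated IMS/N cells (control), IMS/N cells given palmitic acid (PA), IMS/N cells given medium from adipose tissue-derived stem cells (ADSC medium), and IMS/N cells given PA and ADSC medium together. The stem cells came from the inguinal fat of male C57BL/6J mice, 8 to 10 weeks old. The sources used here do not give the concentration or duration of PA, nor whether the cultures without ADSC medium received the same base medium. All 4 groups share the line and its immortalization, so each group stands for 1 line grown in culture. With 1 array per group no group has a replicate, and each difference below compares 2 arrays. Each effect can be read on 2 pairs of arrays, but no model with both treatments as additive terms was fitted here. In bulk RNA from a culture, fewer cells with a transcript and less transcript per cell cannot be told apart.

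NRF2 (Nfe2l2) is a transcription factor that KEAP1 holds in the cytoplasm and marks for degradation. When electrophiles or oxidants modify KEAP1, NRF2 accumulates in the nucleus and binds antioxidant response elements with a small MAF protein, which raises transcription of glutathione, thioredoxin, NADPH and quinone-reducing enzymes. Glutathione is the main small thiol of the liver, and stellate cells are the liver cells that store vitamin A and, when activated, make collagen. PA is a saturated fatty acid, widely used in culture to load cells with lipid.

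The core of the antioxidant response element, written TGACNNNGC, was searched on both strands of RefSeq promoters of the build GRCm38.p6 (250 bases before to 50 bases after each gene's start). Of the 38 genes, 31 had a promoter in that table, and 12 of the 31 (38.7%) held the core, against 3781 of 27025 genes in the whole table (14%). The genes with the core were G6pdx, Gclm, Gsta3, Gstm5, Me1, Mgst1, Nfe2l2, Pgd, Prdx1, Sod1, Srxn1 and Txnrd1. Windows of 40 bases are shown for 6 of them that span the roles described below: the transcription factor itself, glutathione synthesis, a microsomal transferase, NADPH supply, a peroxiredoxin and thioredoxin reductase. Each is written 5′ to 3′ on the strand that reads TGAC, with the core in capitals.
Nfe2l2, chr2:75704874-75704913, minus strand: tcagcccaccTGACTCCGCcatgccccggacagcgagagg
Gclm, chr3:122245408-122245447, minus strand: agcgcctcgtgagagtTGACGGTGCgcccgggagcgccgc
Mgst1, chr6:138140456-138140495, minus strand: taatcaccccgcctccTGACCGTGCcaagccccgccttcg
G6pdx, chrX:74428913-74428952, plus strand: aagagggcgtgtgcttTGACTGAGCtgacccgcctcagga
Prdx1, chr4:116685451-116685490, minus strand: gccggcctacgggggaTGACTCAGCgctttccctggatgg
Txnrd1, chr10:82859099-82859138, minus strand: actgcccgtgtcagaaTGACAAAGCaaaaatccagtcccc
In Prdx1 and in Me1 the core overlaps the 7-base AP-1 sequence TGACTCA, which was present in 5 of the 31 member promoters (16.1%) and in 5.95% of the genes in the table. A match describes these letters only, and binding of NRF2 was not measured.

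Levels are given as log2 intensity after quantile normalization, and a difference is the log2 level on one array minus that on another. A gene was counted as higher or lower when its difference reached 1.5-fold (0.585 on the log2 scale) and either of the 2 arrays had it well above background. Where it was at background on the other array, that array's lowest level well above background took its place and the fold is written "at least". Each array held 45018 spots, none of them saturated, and 67.5% to 70% of the probes were well above background. Before normalization the PA array was the brightest. Its 75th percentile of intensity was 602.3, against 475.6 in control, 472.5 with ADSC medium and 518 with both. The spread between spots was taken from 245 probes printed in 10 copies, with control spots left out. The difference between 2 spots of one probe had an SD of 0.229 at levels of 3 to 5. This SD was 0.135 at levels of 5 to 7 and 0.0672 at levels of 9 to 11. This covers the array surface only and no spread between cultures. Of 14 stellate markers, 10 were well above background on all 4 arrays, but Lrat, Reln, Hgf and Hand2 were so on none. Markers of other cells were detected in part. On all 4 arrays, 2 of the 8 hepatocyte markers measured (Cyp3a11 and Hnf4a), 5 of 9 macrophage markers (Cd68, Csf1r, Cd14, Lyz2 and Mpeg1), 3 of 6 endothelial markers (Kdr, Tek and Stab2) and 3 of 4 biliary markers (Krt19, Krt7 and Sox9) were well above background. Alb, Apoa1 and Ttr of hepatocytes, Adgre1, Ptprc, Clec4f and Tyrobp of macrophages, Pecam1 and Cdh5 of endothelium and Epcam of bile ducts were so on none.

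The members were mostly lower with PA than in control, by small amounts. Of 37 compared, 7 were lower by at least 1.5-fold (18.9%, against 3.27% of the 18209 genes compared) and 0 were higher (2.92% of all genes). The 7 were Gclm, Gsta1, Gsta2, Gsta4, Gstm1, Nqo1 and, as a bound, Sod3. By any amount, 32 of the 37 were lower (51.3% of all genes), and the median difference was -0.20, against -0.0079 for all genes. Scaling each array to its 75th percentile instead moved the members' median to -0.31 and that of all genes to -0.05. With ADSC medium alone, 5 of 37 members were higher by at least 1.5-fold (13.5%, against 2.31% of 18198 genes), namely Gsta1, Gsta2, Mgst1, Sod3 and, as a bound, Gsta3. None of the 37 was lower by that much (1.29% of all genes), and 28 were higher by any amount (48.1% of all genes).

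**Figure D1:**
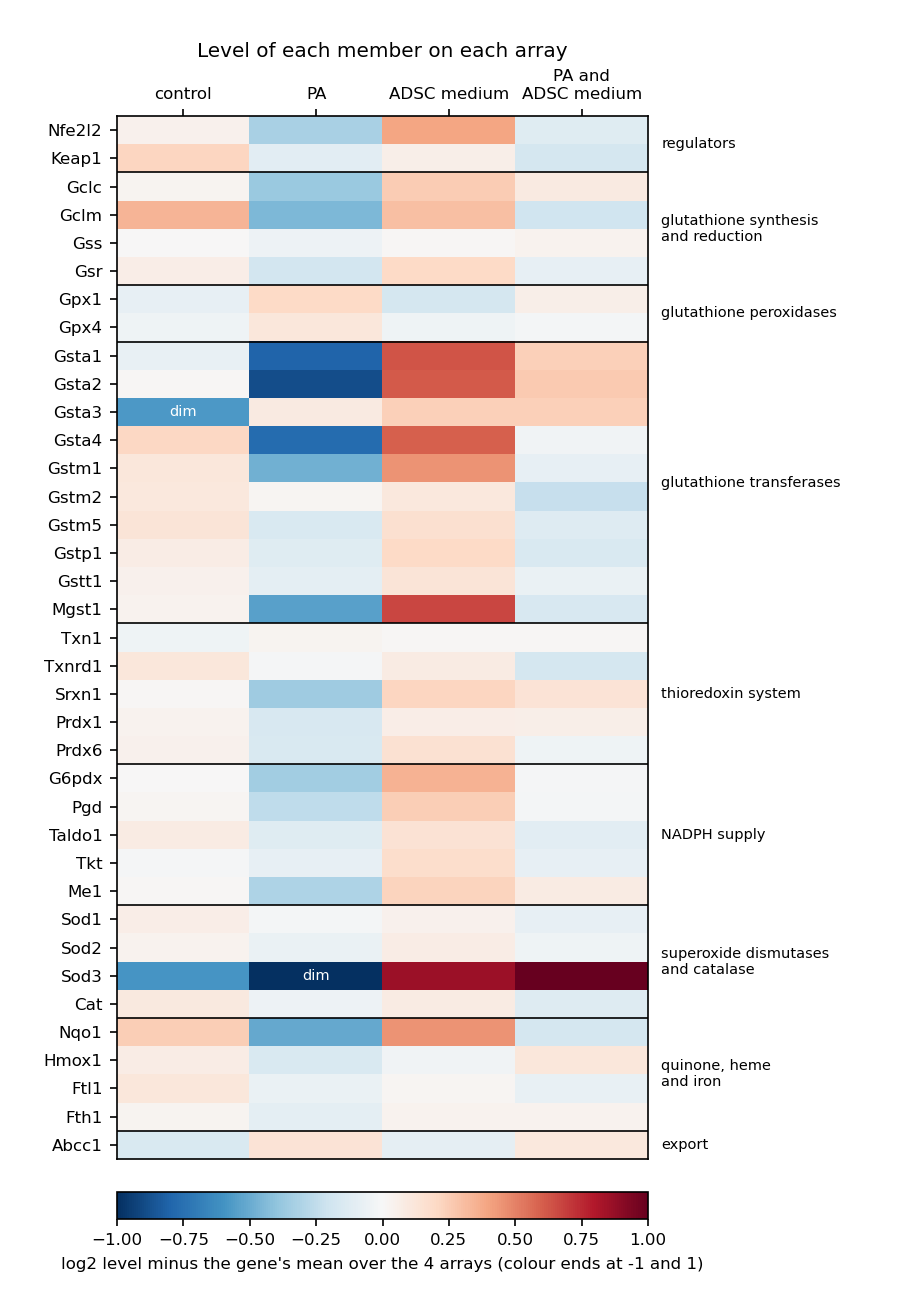
Log2 level of each of the 37 compared genes (rows, ordered by role) on each of the 4 arrays (columns), minus that gene's mean over the 4 arrays; colours end at -1 and 1, and "dim" marks a value not well above background (Gsta3 in control, Sod3 with PA). Across the 35 genes above background on all 4 arrays, PA was the lowest array for 24, against 5031 of 17355 of all genes (29%). ADSC medium was the highest for 23, against 4263 of 17355 of all genes. Fth1, counted here, had the same level with ADSC medium and with both.

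PA was also given together with ADSC medium. Its effect in the presence of that medium can be read on a second pair of arrays that shares none with the first. With PA and ADSC medium against ADSC medium alone, 3 of 37 members were lower by at least 1.5-fold (8.11%, against 3.14% of 18467 genes): Gsta4, Mgst1 and Nqo1. Sod3 was the 1 member that was higher (3.54% of all genes). By any amount, 29 of 37 were lower (52.4% of all genes), with a median of -0.21. PA was the lower array in both pairs for 28 of 37 members (75.7%, against 33.9% of the 17972 genes compared in both). Gsta4 and Nqo1 were lower by at least 1.5-fold in both (0.968% of all genes).

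The readings for ADSC medium use the same 4 arrays as those for PA, so each array enters both. ADSC medium can be read on a second pair too, the combination against PA alone. There 4 of 37 members were higher by at least 1.5-fold (10.8%, against 5.25% of 18751 genes): Gsta1, Gsta2, Gsta4 and, as a bound, Sod3. None was lower by that much (3.72% of all genes), and 26 of 37 were higher by any amount (46.4% of all genes), with a median of 0.11. ADSC medium was the higher array in both pairs for 24 of 37 members (64.9%, against 28.8% of 18048 genes). Gsta1, Gsta2 and Sod3 were higher by at least 1.5-fold in both (1.34% of all genes). A 2-fold threshold left few calls. At that threshold 0 members were lower with PA than in control (0.599% of all genes), and Sod3 was the only one higher with ADSC medium than in control (0.533%). Gsta1, Gsta2 and Sod3 were higher with the combination than with PA (1.75%). Against ADSC medium alone the combination had 0 members higher (1.26%) and 0 lower (0.477%), and against control it had Sod3 higher (1.81%).

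**Figure D2:**
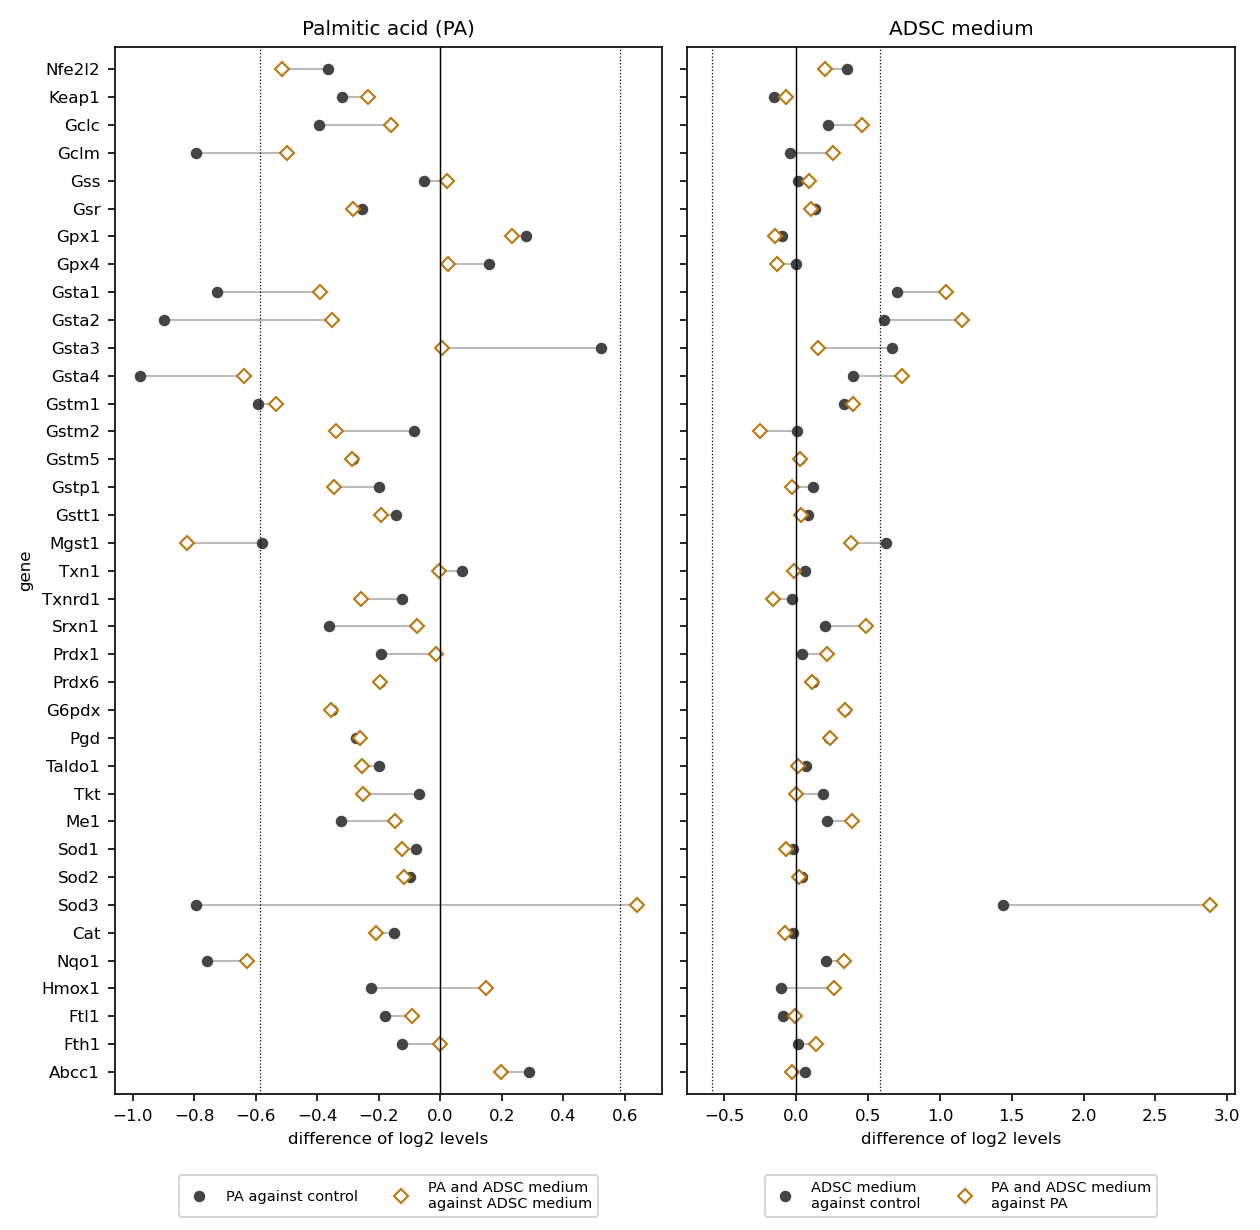
Log2 difference of each of the 37 genes in the 2 array pairs of each treatment: left, PA against its absence, without and with ADSC medium; right, ADSC medium against its absence, without and with PA; dotted lines mark 1.5-fold. PA was lower in both pairs for 28 genes, and ADSC medium was higher in both for 24.

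Over the 4 arrays, PA was lowest and ADSC medium highest for 21 of the 35 members above background on all of them (60%, against 13.4% of 17355 genes), 1 of which, Fth1, had the same level with ADSC medium and with both. The difference between the PA effects with and without ADSC medium reached 1.5-fold for 0 of the 35 in either direction (3.92% of all genes in one and 2.78% in the other). Sod3 and Gsta3, each at background on 1 array, are not among the 35. Without the filter on dim probes this difference was 1.81 for Sod3 and -0.66 for Gsta3. The members lie mostly at high levels, so the same counts were made over the 8075 genes with a mean level of at least 9, a choice made after the values were seen. Of 31 members at such levels, 27 were lower with PA than in control, against 49.9% of those genes. With the combination against ADSC medium, 25 of the 31 were lower, against 52.1% of those genes.

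**Figure D3:**
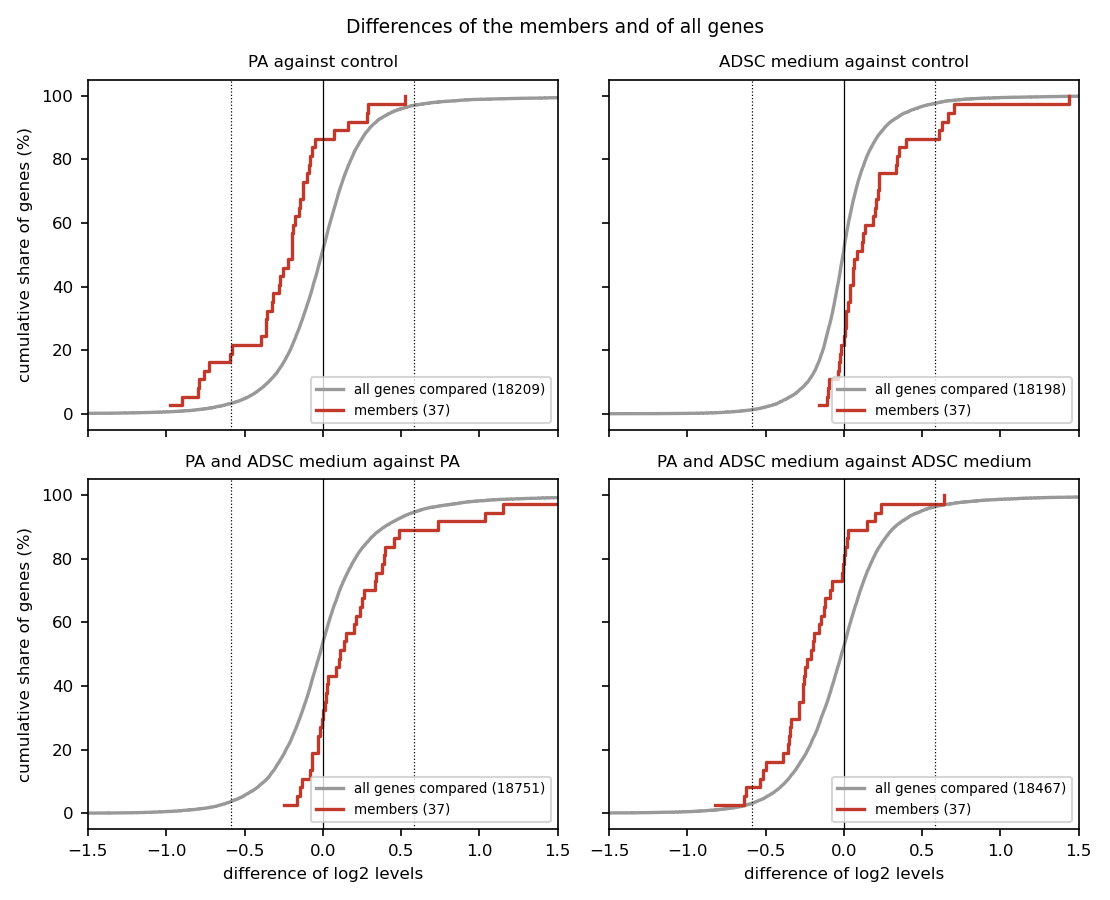
Cumulative share of genes (vertical axis) at or below each log2 difference (horizontal axis, drawn from -1.5 to 1.5) for the 37 members and for all compared genes, in 4 comparisons. The members' line lies left of all genes for PA against control (medians -0.20 and -0.0079) and right of it for the combination against PA (member median 0.11).

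Nfe2l2 itself followed the same order. Its level was 11.68 in control, 11.32 with PA, 12.04 with ADSC medium and 11.52 with both, so that PA and the combination were the low arrays and ADSC medium the high one. The difference with PA was -0.37 in control cells and -0.52 in ADSC medium, both short of 1.5-fold. Its 3 probes gave -0.51 to -0.37 for PA. For ADSC medium against control the brighter probes gave 0.35 and 0.30, and a dim one, at 4.14 in control, gave -0.23. Keap1, the inhibitor of NRF2, was highest in control (12.11) and lower on the other arrays, at 11.79 with PA, 11.96 with ADSC medium and 11.72 with both. Thus the transcript of the factor and that of its inhibitor were both lower with PA.

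Glutathione is made in 2 steps, the first of them by glutamate-cysteine ligase with its catalytic subunit Gclc and its modifier subunit Gclm, and the second by glutathione synthetase (Gss). Gclm (probe at mm9 chr3:121962174-121964809) had a level of 9.85 in control, 9.06 with PA, 9.81 with ADSC medium and 9.31 with both. The control and ADSC medium arrays were close together and the arrays with PA were lower: the difference with PA was -0.79 (1.73-fold lower) without ADSC medium and -0.50 with it. A second probe for Gclm gave -0.55 and -0.69, on opposite sides of the threshold from the first in each case. Gclc had levels of 12.37, 11.97, 12.59 and 12.43 in the order control, PA, ADSC medium and both, and its difference with PA of -0.39 was met by 0.46 between the combination and PA. Gss stayed between 10.01 and 10.10 on the 4 arrays. Glutathione reductase (Gsr), which returns oxidized glutathione to its reduced form with NADPH, was 10.71, 10.46, 10.84 and 10.56 in the same order.

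Gpx1 and Gpx4, selenoenzymes that use glutathione to reduce hydrogen peroxide and lipid hydroperoxides, went the other way from most members. Gpx1 was 14.87 in control, 15.15 with PA, 14.77 with ADSC medium and 15.00 with both, a difference of 0.28 with PA. Gpx4 was highest with PA too, at 15.26, and between 15.11 and 15.13 on the other arrays. Neither reached 1.5-fold in any comparison.

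Among the members, the glutathione S-transferases, which couple glutathione to electrophiles, held most of the large differences. Of the 10 cytosolic and microsomal transferases of the list, 9 were lower with PA than in control (51.3% of all genes), with a median of -0.43. With ADSC medium 10 were higher than in control (48.1% of all genes), with a median of 0.37. Among these, Gstm2 and Gstm5 were higher by only 0.004 and 0.03. Transferases outside the list went both ways with PA against control. Mgst3 (-1.03) and Gstm3 (-0.70) were lower, whereas Gstt2 (0.21), Gsto2 (0.16) and Mgst2 (0.14) were higher. Gsta4, the alpha-class enzyme known for conjugating 4-hydroxynonenal, a product of lipid peroxidation, had levels of 8.49 in control, 7.52 with PA, 8.89 with ADSC medium and 8.25 with both (probe at mm9 chr9:78046172-78047344). PA was the low array in each pair: it was 1.97-fold lower than control, and the combination was 1.56-fold lower than ADSC medium. The combination was 1.66-fold higher than PA. With the normexp background correction, the 2 smaller of these differences fell short of 1.5-fold, at -0.53 and 0.58 on the log2 scale.

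Gsta1 and Gsta2 are close relatives whose probes may each bind the other's transcript, so they are not independent readings. Gsta1 was 5.88 in control, 5.16 with PA, 6.58 with ADSC medium and 6.20 with both (probe at mm9 chr9:78083844-78087325). Gsta2 was 5.05, 4.15, 5.66 and 5.30 in that order (probe at mm9 chr9:78181644-78181703). Both were lowest with PA, and both arrays with ADSC medium lay above control. Gsta1 was 1.66-fold lower with PA than in control, 1.63-fold higher with ADSC medium than in control and 2.06-fold higher with the combination than with PA. For Gsta2 these were 1.86-fold lower, 1.52-fold higher and 2.22-fold higher. The signals were dim, and with normexp, which adds an offset to the intensities, none reached 1.5-fold: the log2 differences became -0.34, 0.42 and 0.55 for Gsta1 and -0.23, 0.27 and 0.37 for Gsta2. Gsta3 was at background in control and low elsewhere, at 2.95 with PA, 3.09 with ADSC medium and 3.10 with both. It was at least 1.59-fold higher with ADSC medium than in control (0.06 on the log2 scale with normexp), and its second probe was not well above background on any array.

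Mgst1, a membrane-bound transferase of the endoplasmic reticulum and mitochondria, had levels of 9.76 in control, 9.18 with PA, 10.39 with ADSC medium and 9.56 with both (probe at mm9 chr6:138104944-138105003). ADSC medium was the high array and PA the low one. It was 1.54-fold higher with ADSC medium than in control, and 1.77-fold lower with the combination than with ADSC medium. Its difference of -0.58 between PA and control lies just outside the threshold (1.49-fold), and its second probe gave -0.61.

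Among the mu-class transferases, Gstm1 had levels of 14.31 in control, 13.72 with PA, 14.64 with ADSC medium and 14.11 with both (probe at mm9 chr3:107815180-107815239). It was 1.51-fold lower with PA than in control, just inside the threshold, and a second probe gave a difference of -0.77. Gstm2, Gstm5, the pi-class Gstp1 and the theta-class Gstt1 differed by at most 0.28 between PA and control. Gstm paralogues are similar in sequence, and how far their probes share transcripts was not measured.

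The thioredoxin system reduces protein disulfides and peroxides alongside glutathione. Thioredoxin (Txn1) stayed between 15.40 and 15.47 on the 4 arrays. Thioredoxin reductase (Txnrd1) was lowest with both, at 13.18, and 13.47 in control. Srxn1, the sulfiredoxin that repairs over-oxidized peroxiredoxins, was 11.27 in control, 10.90 with PA, 11.47 with ADSC medium and 11.39 with both. PA was thus its low array, with a difference of -0.36 from control and of 0.49 between the combination and PA, and its 3 probes gave -0.38 to -0.31 for the first. Prdx1 and Prdx6, peroxiredoxins that reduce peroxides, differed from control by -0.19 and -0.20 with PA.

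The enzymes that regenerate NADPH differed in 1 direction in each of the array pairs, by small amounts, but Tkt (mean of its probes, PA against control and the combination against PA) and Taldo1 (normexp, the combination against PA) changed sign under those settings. G6pdx, the first enzyme of the pentose phosphate pathway, was 12.96 in control, 12.61 with PA, 13.30 with ADSC medium and 12.95 with both. Pgd, the next NADPH-producing enzyme of that pathway, was 12.88, 12.61, 13.11 and 12.85 in the same order. For both genes the combination lay within 0.04 of control, PA below it and ADSC medium above it. Malic enzyme (Me1), which makes NADPH from malate, was 10.45, 10.13, 10.67 and 10.52. With Taldo1 and Tkt of the non-oxidative branch, 5 of 5 were lower with PA (51.3% of all genes), with a median of -0.27. With ADSC medium 5 of 5 were higher (48.1% of all genes, median 0.22). For the combination against ADSC medium 5 of 5 were lower (52.4% of all genes, median -0.26). None reached 1.5-fold, and these counts use 1 probe per gene. The 3 probes of Tkt disagreed for PA against control, at -0.13 to 0.46, and for ADSC medium against control, at -0.33 to 0.26. They also disagreed for the combination against PA (-0.52 to 0.001) and against ADSC medium (-0.32 to 0.10). The Tkt probe used for the counts was at 13.17 in control, and the others were far dimmer, at 5.10 and 2.99. The 2 probes of Me1 gave -0.15 and 0.01 for the combination against ADSC medium.

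Nqo1, the quinone reductase often used as a reporter of NRF2 activity, had levels of 9.98 in control, 9.23 with PA, 10.19 with ADSC medium and 9.56 with both (probe at mm9 chr8:109912440-109912499). Both arrays with PA were below both arrays without it. The level was 1.69-fold lower with PA than in control and 1.55-fold lower with the combination than with ADSC medium. Hmox1, the heme oxygenase that NRF2 shares with other stress factors, was 13.56, 13.34, 13.45 and 13.60 in the order control, PA, ADSC medium and both. Its PA difference was -0.22 without ADSC medium and 0.15 with it. The ferritin chains Ftl1 and Fth1, which store iron, differed by -0.18 and -0.13 between PA and control. Fth1 was very bright, at 17.44 to 17.58, and its small differences depended on the scaling. For the combination against control it was at 0.01, and at -0.20 with 75th percentile scaling. For Abcc1, an exporter of glutathione conjugates, the probe with the highest level was at 9.90 with PA and 9.87 with both. It was lower in control (9.61) and with ADSC medium (9.67). The 3 probes of Abcc1 gave 0.04 to 0.29 for PA against control. They disagreed for the combination against control, at -0.22 to 0.26.

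Superoxide dismutases turn superoxide into hydrogen peroxide, which catalase removes. Sod1 of the cytosol, Sod2 of the mitochondria and catalase (Cat) differed from control by -0.08, -0.10 and -0.15 with PA. Sod1 had 2 more probes, of lower signal, which gave -0.47 and -0.58. Sod3, the secreted form, stood apart: its level was 2.87 in control, at background with PA, 4.31 with ADSC medium and 4.95 with both (probe at mm9 chr5:52759318-52759377). Both arrays with ADSC medium were above both arrays without it. It was at least 1.74-fold lower with PA than in control, 2.72-fold higher with ADSC medium than in control, at least 7.35-fold higher with the combination than with PA, and 4.23-fold higher with the combination than in control. The combination was also 1.56-fold higher than ADSC medium alone. All of these rest on dim signals. With normexp the difference between the combination and PA, at 0.61, was still past 1.5-fold, and those of -0.14 (PA against control), 0.25 (ADSC medium against control), 0.22 (the combination against ADSC medium) and 0.47 (the combination against control) were not.

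**Figure D4:**
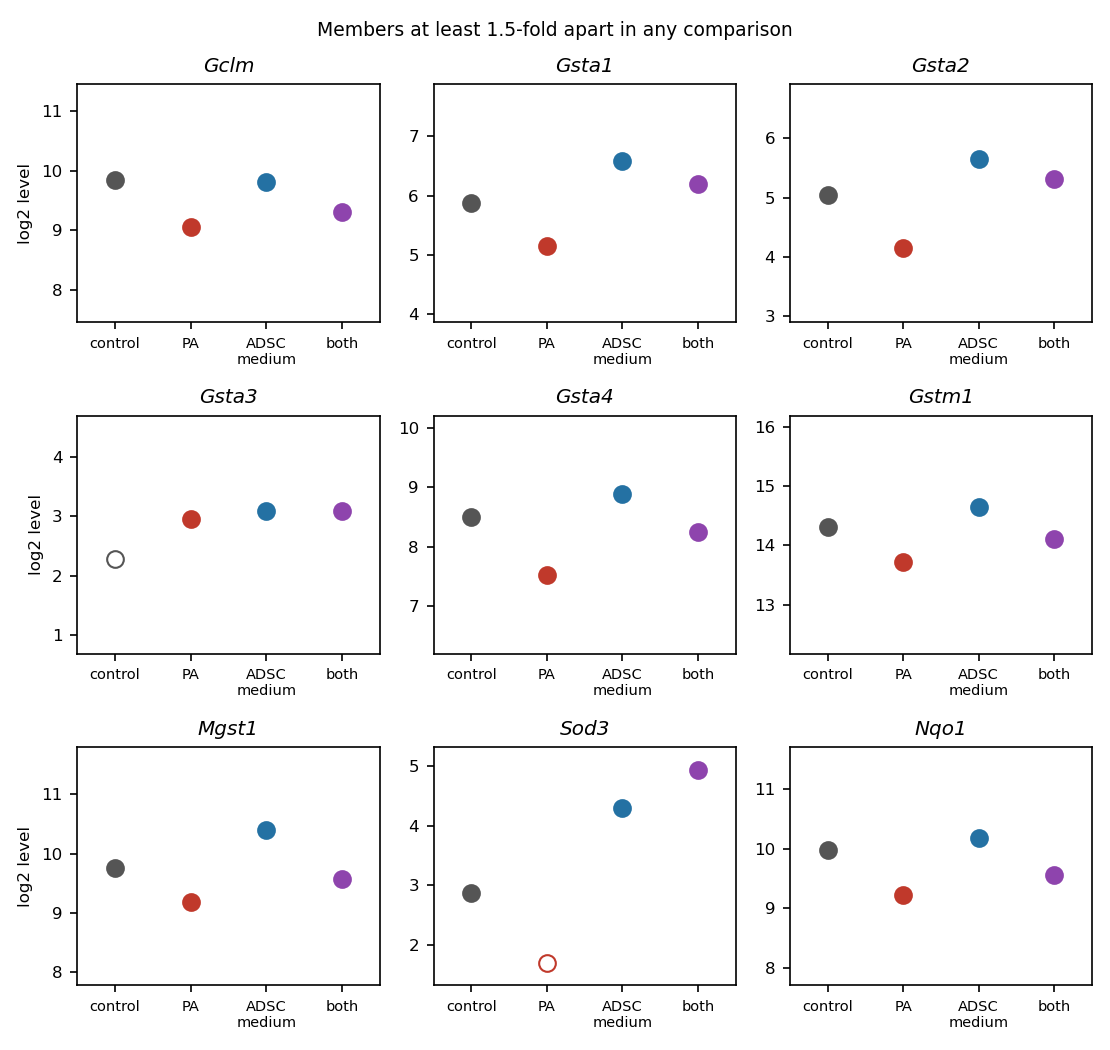
Log2 level on the 4 arrays of the 9 genes that reached 1.5-fold in at least 1 comparison; each point is 1 array, and open circles are values not well above background. PA is the lowest array for Gclm, Gsta1, Gsta2, Gsta4, Gstm1, Mgst1, Nqo1 and Sod3.

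Set against control, the cells given PA and ADSC medium together were close to control for most members. Of 37 compared, 2 were higher by at least 1.5-fold (4.68% of 18252 genes), Sod3 and, as a bound, Gsta3, and 0 were lower (3.67% of all genes). By any amount, 15 were higher (46.5% of all genes) and 22 lower (53.3%), with a median of -0.08. The lowest differences were -0.54 for Gclm, -0.42 for Nqo1 and -0.39 for Keap1. These 3 had levels on the combination array below both arrays without PA.

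The summed intensities of the adipocyte and macrophage marker lists were higher on both arrays with ADSC medium, each through 1 gene. Of 5 adipocyte markers, Fabp4 and Cidec were well above background on all 4 arrays, and Adipoq, Plin1 and Lep on none. The summed intensity of the list was 2831.4 in control, 2008.3 with PA, 4302.3 with ADSC medium and 4099.0 with both. Fabp4 carried it, with log2 levels of 11.46, 10.95, 12.07 and 11.99 in that order, whereas Cidec was 3.82, 4.57, 3.37 and 4.07. The sum of the 9 macrophage markers was 843.5, 814.4, 1196.7 and 1358.9. It followed Cd14, at 9.08, 8.80, 9.81 and 10.11, whereas Lyz2 was lower on both arrays with ADSC medium, at 7.48 in control, 7.88 with PA, 7.11 with ADSC medium and lowest with both. The sums of the endothelial list (389.6, 502.9, 314.3 and 423.3), the biliary list (1216.0, 932.0, 1212.2 and 1013.1) and the hepatocyte list (30.6, 41.2, 34.0 and 35.5) were not higher on both. Their part in the differences with ADSC medium was not tested.

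Other genes of glutathione, NADPH and NRF2 biology were taken from a list of 121 names, of which 118 were on the array and 115 were detected. With PA, 8 of 114 were lower than control by at least 1.5-fold (7.02%, against 3.27% of all genes) and 1 was higher (0.877%, against 2.92%). The lower ones included Aox1, an aldehyde oxidase (-1.07), Mgst3, a microsomal transferase (-1.03), Sesn1, a sestrin (-0.78), and Gstm3, a mu-class transferase (-0.70). Ggt5, a gamma-glutamyl transferase that cleaves glutathione conjugates, was at background with PA and at least 2.14-fold lower, although with normexp its log2 difference was -0.15. The higher one was Txnip, the inhibitor of thioredoxin, at 0.99. Of 114 genes, 76 were lower by any amount (66.7%), with a median of -0.08, nearer to the median of all genes than that of the members.

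With ADSC medium, 7 of the 114 were higher than control by at least 1.5-fold (6.14%, against 2.31% of all genes) and 0 were lower (1.29% of all genes). Ggt5 had the largest difference, at 1.90, followed by Ggt1 and Mgst2 (both 0.70), Xdh, a xanthine oxidoreductase (0.67), and Selenop, a selenium carrier (0.65). With normexp, the values for Ggt5, Ggt1 and Mgst2 were 0.48, 0.05 and 0.48. The combination against PA had 6 of 114 higher (5.26%), no more than the share of all genes (5.25%), and 1 lower (0.877%, against 3.72%). The higher ones were led by Akr1b3, an aldose reductase (1.67), Sesn1 (1.54) and Nadk2, the mitochondrial NAD kinase (1.48). Ggt5, as a bound, was at 1.21 (0.21 with normexp), and Slc40a1, the iron exporter ferroportin, at 1.03 (0.53 with normexp).

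The combination against ADSC medium had 9 of 114 lower (7.89%, against 3.14% of all genes) and 2 higher (1.75%, below the 3.54% of all genes). The lower ones were led by Ggt5 (-1.78, or -0.42 with normexp), Mgst2 (-1.09, or -0.72), Aox1 (-0.97), Aldh1l1, a folate enzyme that makes NADPH (-0.96), and Mgst3 (-0.95). The higher ones were Akr1b3 and Slc3a2, a chain of the cystine transporter (both 0.70). Aox1, Ggt5, Mgst3 and Pir were thus lower with PA by at least 1.5-fold in both pairs of arrays (3.54% of 113, against 0.968% of all genes). Akr1b3 and Ggt5 were higher with ADSC medium in both (1.77%, near the 1.34% of all genes). With normexp, Ggt5 fell short of 1.5-fold in each of these comparisons.

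The authors' deposited probe lists, which hold only probes higher with PA, held few of these genes. Of 1580 probes that the authors' deposited table lists as higher with PA than in control (3.84% of the probes), 1 of the 60 member probes was present, that of Gsta3. Its difference here was 0.52 as a bound, at least 1.44-fold. Of 920 probes in the authors' deposited table of those higher with PA and lower again with ADSC medium (2.23% of the probes), 0 of the 60 were members. Among the other pathway genes, the first list held Gdap1, Slc7a11 and Txnip, and the second held Gdap1. Their differences here between PA and control were 0.34 (a bound), 0.55 and 0.99.

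Where the promoter was in the RefSeq table, the members with the antioxidant response core had median differences of -0.30 with PA and 0.21 with ADSC medium against control, and 0.23 for the combination against PA. Those without it in that window had medians of -0.15, 0.05 and 0.01, and the 7 members with no promoter in the table had -0.25, 0.13 and 0.26. For the combination against ADSC medium the medians with and without the core were close, at -0.26 and -0.22, as they were for the combination against control, both at -0.09. The groups with and without the core hold 12 and 18 compared genes, and the values are a description of the letters in a short window. Gclm was the 1 gene with the core that was lower with PA by at least 1.5-fold, and Gsta1, Gsta2, Gstm1 and Nqo1 had no match in the window.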

How the data were processed

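Total RNA from 4 cultures of IMS/N cells was labelled with Cy3 and hybridised to single-colour Agilent arrays of design 014868, all on 1 slide and 1 scan. The deposited values were processed spot intensities from Agilent Feature Extraction 12.1.1.1 (protocol GE1_105_Dec08), background-subtracted per the file headers. The series' design text names quantile normalization, and the submitters' processing notes name R 3.5.1. The authors' deposited probe lists have no values per sample.

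Here, spots with an outlier flag (82 to 104 per array) and control spots were left out, log2 intensities were averaged per probe (41146 probes) and normalized by quantile with limma 3.58.1 in R 4.3.3. Probes were named by RefSeq accession where matched (28680), otherwise by the array's name, and the probe with the highest mean level stood for its gene. A gene is well above background on an array when over 50% of its probe's spots carry that mark. Comparisons required this on either array, with the array's lowest such level (2.07 to 2.43) in place of a dim value. The threshold was 1.5-fold. With 1 array per group no test was run, no p-value is given, and the number of arrays limits the precision. The script was tested on simulated data. Alternatives were 75th percentile scaling, normexp with an offset of 50, no filter on dim probes, the mean of a gene's detected probes, outlier spots kept, and a 2-fold threshold. The members and lists were chosen with earlier results of these data known. The genes named are all members past the threshold, each role's main members, and at most 5 other pathway genes per direction and comparison. Those in the authors' lists are named too. Probe coordinates are those of the arrays, on mm9, for which no annotation was used here. Promoter sequences are RefSeq's, on GRCm38.p6.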

Additional observations from a re-analysis of the deposited data

Results flagged for a closer look

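For Sod3 and Hmox1 the effect of PA had opposite directions in the array pairs without and with ADSC medium, each by more than the spread between copies of a spot at that level, a spread that holds no difference between cultures. Sod3 differed by -0.80 (a bound, since the PA array was at background) between PA and control, and by 0.64 between the combination and ADSC medium. Hmox1 differed by -0.22 and 0.15 in the same pairs. The effect of ADSC medium on Hmox1 also turned, from -0.11 against control to 0.26 for the combination against PA. With 1 array per group these differences between effects were not tested.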

How the results depend on the processing

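With normexp, 4 members in place of 7 were lower with PA than in control (0.894% of all genes under that setting). With ADSC medium against control, 1 in place of 5 was higher (0.585%). For the combination against PA, 1 in place of 4 was higher (1.84%). The combination had 0 in place of 1 higher than ADSC medium (1.35%) and 0 in place of 2 higher than control (2.08%). The offset of this correction compresses differences at low intensity. At 2-fold, 0 were lower with PA than in control (0.599% of all genes), and 1 was higher with ADSC medium (0.533%). The combination had 0 higher (1.26%) and 0 lower (0.477%) than ADSC medium, and 1 higher than control (1.81%). Scaling to the 75th percentile moved the median of PA against control to -0.31 and gave Gsta2 (0.66) as 1 member whose PA effect was higher by 1.5-fold with ADSC medium than without. Without the filter on dim probes, 1 member was higher with PA than in control (5.92% of all genes under that setting). Under it, the difference between the PA effects had 1 higher (Sod3) and 1 lower (Gsta3). The cause of the change with scaling was not tested. The other 82 values of counts and medians kept their direction and lay within 1.5 times the count or within the spot spread. No member changed sign in a comparison in which it had reached 1.5-fold. The sign changed only for members with small differences, such as Txn1 with 75th percentile scaling and Tkt with the mean of its probes, both for PA against control. Over all genes, 75th percentile scaling changed the split for PA against control from 532 higher and 596 lower to 457 and 768, and for the combination against PA from 985 and 698 to 1290 and 462. No paired analysis was possible because each group has 1 array, so there are no replicate numbers to use as a block.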

Other observations

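Of 113 other genes of the pathway compared between the combination and control, 7 were higher by at least 1.5-fold (6.19%, against 4.68% of all genes) and 5 were lower (4.42%, against 3.67%), both near the share of all genes. The higher ones were led by Akr1b3 (1.35 on the log2 scale), an aldose reductase, Nadk2 (2.14-fold), which makes mitochondrial NADP, and Sesn1 (0.76), a sestrin. Slc40a1, the iron exporter, followed at 0.73 (0.39 with normexp) and Maff, a small MAF partner of NRF2, at 0.69. The lower ones were Mgst3 (-0.79), Pir (-0.68), Txnrd3 (-0.63), Abcc3 (-0.61, or -0.40 with normexp) and Me3 (-0.59). Me3, the mitochondrial malic enzyme, was -0.23 with normexp and -1.5 as the mean of its probes. Sesn1 was lower than control with PA alone (-0.78), and Akr1b3, Nadk2 and Sesn1 all lay above PA in the combination by at least 2.80-fold.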
